A study of Rattus norvegicus with 12 samples.

Results

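Trib3, Ddit3, Atf4, Asns, Chac1, Sesn2, Hspa5, Herpud1 and Xbp1 are genes of the integrated stress response and the unfolded protein response, and their transcripts were followed in rat striatum after carbon monoxide (CO) or low oxygen. Probes were taken where the gene name in the scanner files, or the current symbol for that name, was one of these 9 genes. This gave 10 probes for 8 genes, of 40998 probes used: Chac1 and Herpud1 had 2 probes each, and Sesn2 was listed under an older name. No probe matched Xbp1 by name and it was not analysed here. Each of 12 male Sprague-Dawley rats gave total RNA from both striata for 1 array, a single-colour Agilent chip covering the rat genome. All rats were exposed for 40 min, then anaesthetised with sodium pentobarbital and perfused with chilled saline. The control rat breathed air and was sampled at 0 h. The other 11 rats breathed 1000 ppm CO (sampled 0, 2, 6 or 12 h later), 3000 ppm CO (0, 2, 6 or 12 h) or 5% O2 (0, 2 or 6 h). Each combination of exposure and time was thus a single rat with no replicate, and air was measured at 0 h only.

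In the integrated stress response, several kinases phosphorylate the translation factor eIF2, which lowers general translation while the mRNA of the transcription factor ATF4 is translated more. ATF4 and its partner CHOP, encoded by Ddit3, switch on genes of amino acid supply, redox balance and feedback. In the unfolded protein response, sensors in the membrane of the endoplasmic reticulum (ER) are held inactive by the chaperone BiP, encoded by Hspa5, and when released they raise chaperones and the degradation machinery through ATF6 and XBP1. Both responses are known to be engaged when brain tissue lacks oxygen.

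The probe letters are shown for the 5 genes whose values are described most closely, since a level belongs to a probe and not to the whole transcript. Each line gives the first 30 of the 60 bases, from the scanner files, 5′ to 3′.
Trib3: ttgatgactttggtttggttgagtatgtat
Chac1 probe 1: agaaggaggcgaagtagctcttcaaggacc
Chac1 probe 2: tagtgtggaagcctgactttgcctacagcg
Sesn2: tcaagacggttgcctgctacccggagaaga
Hspa5: taagtctcgaatgtaattggaatcttcacc
Herpud1 probe 1: cctgttggaatgttgcaattacactaagtg
Herpud1 probe 2: gttggattggacctactcagcagcgacatt
On the rat build rn4, the file headers place the Trib3 probe at chr3:142664064-142664123 and the Hspa5 probe at chr3:13787739-13787798. The Chac1 probes lie at chr3:105873066-105873125 and chr3:105870415-105870474, and the Herpud1 probes at chr19:11036709-11036768 and chr19:11040019-11040078. The Sesn2 probe is placed at chr5:152655891-152655950.

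Letters that the transcription factors of these pathways are known to bind were searched in the 250 bases before the start of 33469 RefSeq genes (build GRCr8), on both strands. The ER stress response element, CCAAT and CCACG with any 9 bases between, was present in 0.0657% of these windows. Its short form, ATTGG and CCACG with any base between, was present in 0.0418%, and the amino acid response element TTGCATCA in 0.693%. Among the 9 genes, all with a RefSeq promoter, the first stood before Hspa5 and Xbp1, the second before Herpud1, and the third before Chac1 and Herpud1. The measured genes with a match are printed because they carry the letters for the chaperone arm and the amino acid arm, with the matches in capitals.
Hspa5: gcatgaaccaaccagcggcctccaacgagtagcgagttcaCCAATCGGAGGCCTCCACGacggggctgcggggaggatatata
Herpud1: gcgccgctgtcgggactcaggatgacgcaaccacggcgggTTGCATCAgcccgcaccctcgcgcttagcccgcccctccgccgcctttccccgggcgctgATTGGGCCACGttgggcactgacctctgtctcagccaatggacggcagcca
Chac1: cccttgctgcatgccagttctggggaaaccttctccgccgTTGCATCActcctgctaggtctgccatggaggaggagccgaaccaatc
The Hspa5 stretch lies at chr3:38452933-38453015 on the plus strand, the Herpud1 stretch at chr19:10614781-10614931 on the minus strand and the Chac1 stretch at chr3:126795924-126796011 on the plus strand, all on GRCr8. A match describes letters in a window and was not a measurement of binding.

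A level is the log2 of a probe's processed signal minus the 75th percentile of its array, so 0 is the 75th percentile and a step of 1 is a 2-fold step. All 10 probes were well above background on all 12 arrays. The 12 arrays had 72.9% to 78.7% of spots well above background and a 75th percentile of 462 to 806 intensity units. They lay on 3 slides: air and 3000 ppm CO at 0, 2 and 6 h on slide 1, 1000 ppm CO on slide 2, and 3000 ppm CO at 12 h with 5% O2 on slide 3. The exposure to 1000 ppm CO and slide 2 cannot be told apart. Slide 1 was scanned on a different date from slides 2 and 3, so comparisons of air with slides 2 and 3 also cross scan dates. Medium spiny neurons are the bulk of striatal neurons, and their 12 marker genes were well above background on every array. All 12 were, however, at least 2-fold below air in 5% O2 at 0 h (median -3.23). In 1000 ppm CO at 6 h all 12 were also below air (median -0.86). Markers of septal and thalamic neurons (6 genes) had medians of 1.82 and 1.34 above air on those arrays and of 1.10 on the 12 h array of 3000 ppm CO, and markers of choroid plexus and ependyma had medians below air on all 11 exposed arrays (-0.32 to -6.70). In such bulk samples, fewer cells of a type and less RNA per cell cannot be told apart.

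Against air, the stress genes did not all have their highest value on the same array. Trib3 stood highest in 5% O2 at 0 h, both Chac1 probes in 1000 ppm CO at 6 h, Sesn2 in 3000 ppm CO at 2 h, while Hspa5 was below air on every exposed array. Of the 110 pairs of a probe and an exposed array, 4 were at least 2-fold higher than air and 1 was at least 2-fold lower, against 2.27% and 3.6% of such pairs over all probes. The background on the single arrays concerned was 3.4% higher in 5% O2 at 0 h, 2.08% higher in 1000 ppm CO at 6 h, 2.32% higher in 3000 ppm CO at 12 h, 1.85% higher in 3000 ppm CO at 2 h and 2.72% lower in 3000 ppm CO at 6 h. These differences compare single rats and had no test, and every one of them shares the air array.

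**Figure D1:**
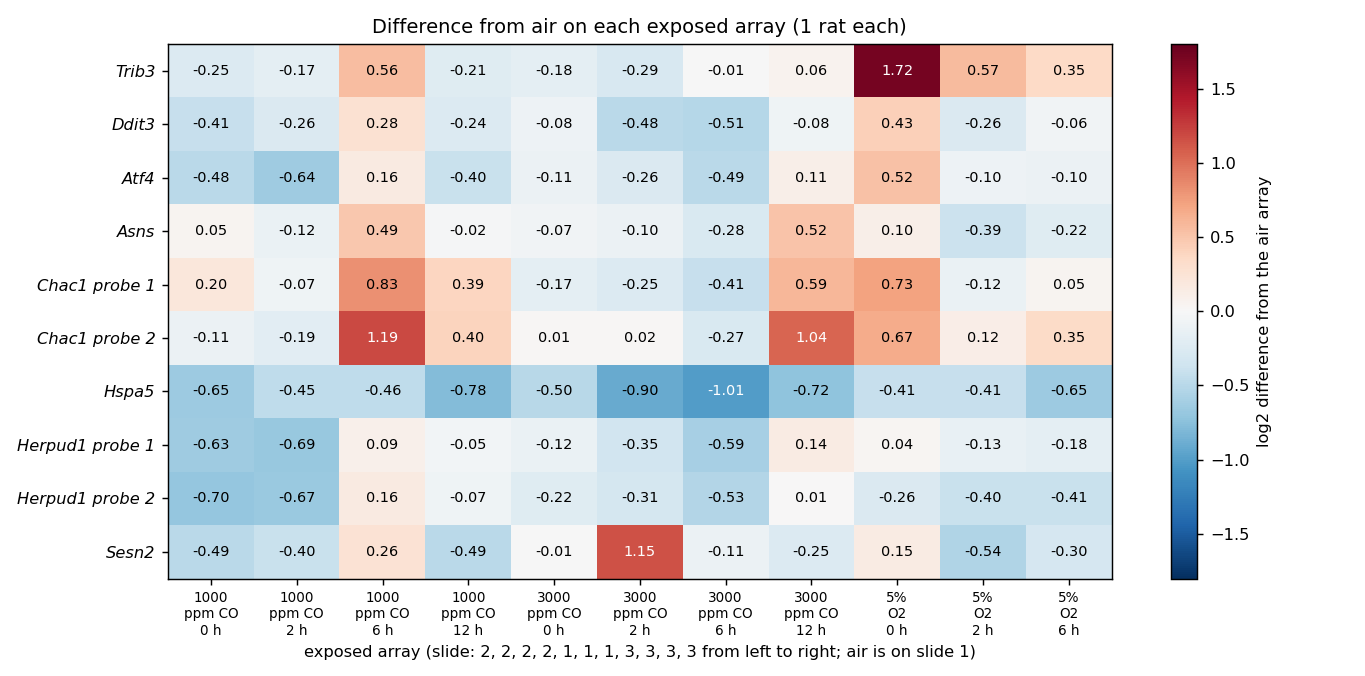
Log2 difference from the air array for the 10 probes (rows) on the 11 exposed arrays (columns), 1 rat each, with red for higher and blue for lower than air. Trib3 in 5% O2 at 0 h (1.72) is the highest value, and the Hspa5 row is below 0 throughout.

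Trib3 encodes a pseudokinase that is a target of ATF4 and CHOP and dampens them. Its level was -3.31 in air. After 5% O2 it was -1.58 at 0 h, -2.73 at 2 h and -2.95 at 6 h. After 1000 ppm CO it was -3.56, -3.48, -2.75 and -3.52 at 0, 2, 6 and 12 h, and after 3000 ppm CO -3.48, -3.59, -3.31 and -3.24. All 3 arrays of 5% O2 thus stood above air, by 1.72, 0.57 and 0.35, as they did for 29.1% of all probes; among the 10 probes only Trib3 and Chac1 probe 2 did so. Of the CO arrays, only 1000 ppm CO at 6 h (0.56) and 3000 ppm CO at 12 h (0.06) were above air. Within slide 3, Trib3 at 2 h was lower than at 0 h by -1.15, the largest step of the 10 probes between those arrays. The signal was dim, at 41.4 to 200.4 intensity units. On the array where it was highest, medium spiny neuron markers were lowest and septal and thalamic markers highest, and their part in the value was not tested.

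Atf4 encodes the transcription factor at the centre of the integrated stress response. Its level in air was 4.54. It reached 5.07 in 5% O2 at 0 h and was 4.45 at 2 h and 4.44 at 6 h. After 1000 ppm CO it was 4.06, 3.90, 4.71 and 4.14, and after 3000 ppm CO 4.43, 4.28, 4.06 and 4.65, in the order of the times. The highest array was 0.52 above air and the lowest, 2 h after 1000 ppm CO, lay at -0.64, so Atf4 mRNA stayed within 1.56-fold of air on every array.

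Ddit3 encodes CHOP, a transcription factor of prolonged ER stress. Its level was 0.36 in air, 0.79, 0.10 and 0.30 after 5% O2, and -0.05, 0.10, 0.64 and 0.12 after 1000 ppm CO. After 3000 ppm CO it was 0.28, -0.12, -0.15 and 0.28. It followed Atf4 closely: 5% O2 at 0 h and 1000 ppm CO at 6 h were the only arrays above air, by 0.43 and 0.28. Over the 12 arrays the Pearson correlation of Atf4 with Ddit3 was 0.86, that of Trib3 with Atf4 0.80 and that of Trib3 with Ddit3 0.77. Pairs that reached outside these genes had similar values, such as Atf4 with Herpud1 probe 1 (0.83) and Ddit3 with Chac1 probe 1 (0.75). These are descriptions over 12 arrays that share slides and the mix of cells. Trib3, Ddit3 and Atf4 were the 3 probes whose highest array was 5% O2 at 0 h, as it was for 12.9% of all probes well above background on every array.

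**Figure D2:**
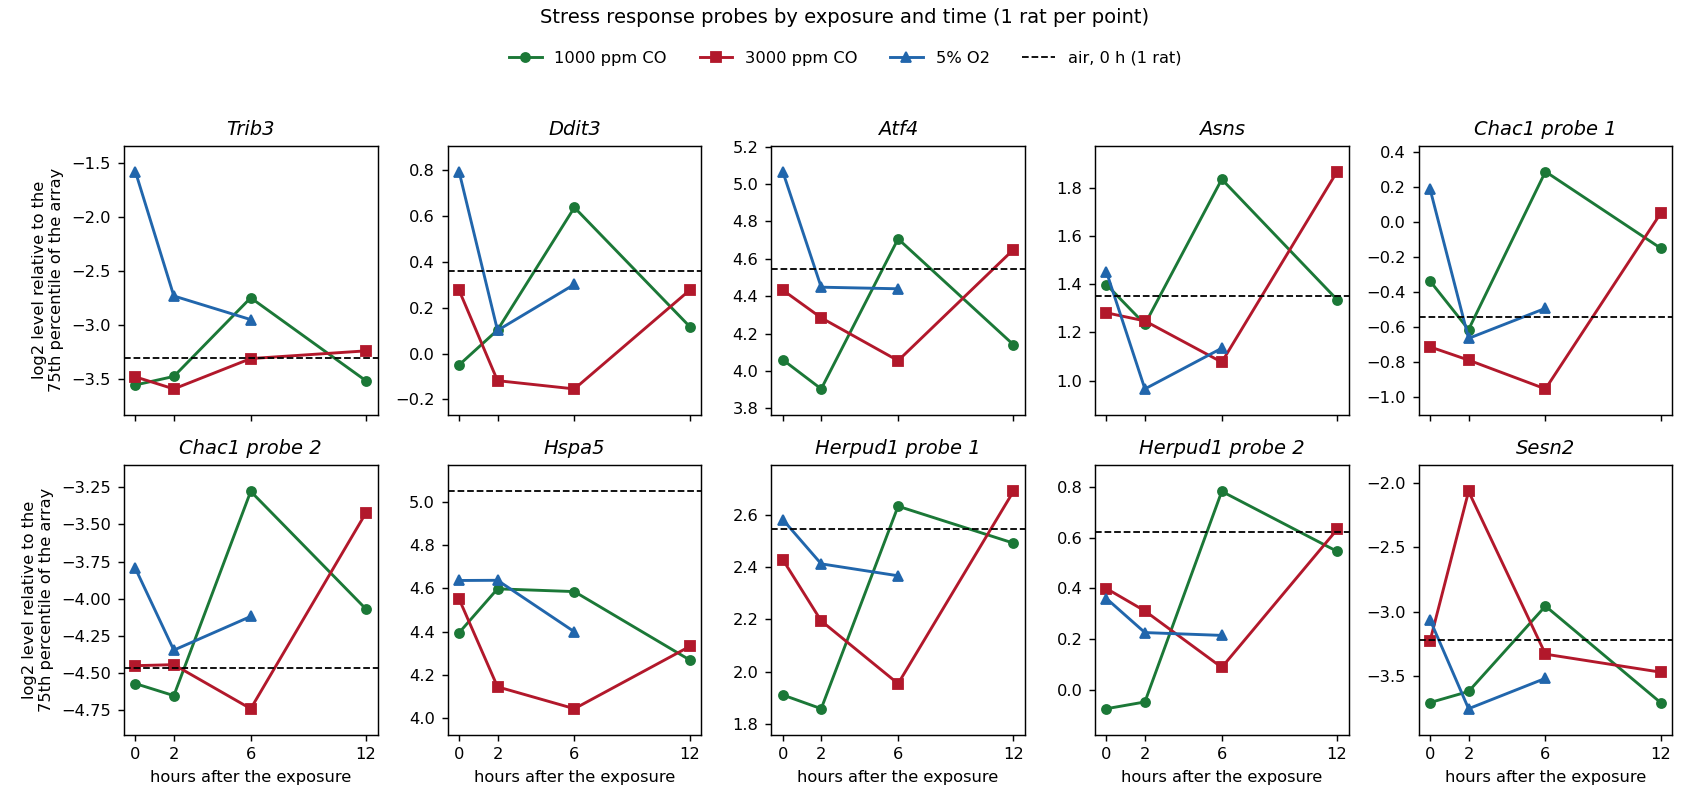
Log2 level of each probe, relative to the 75th percentile of its array, against hours after the exposure for 1000 ppm CO, 3000 ppm CO and 5% O2, with the air rat as a dashed line and 1 rat per point. Trib3, Ddit3 and Atf4 are highest in 5% O2 at 0 h, while Chac1, Asns and Herpud1 are high in 1000 ppm CO at 6 h and 3000 ppm CO at 12 h.

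Chac1 encodes an enzyme that breaks down glutathione and is a target of ATF4. Probe 1 read -0.54 in air, and -0.34, -0.61, 0.29 and -0.15 after 1000 ppm CO. The rats given 3000 ppm CO had -0.71, -0.79, -0.95 and 0.05, and those given 5% O2 had 0.19, -0.66 and -0.49. Probe 2 read -4.47 in air, and -4.57, -4.65, -3.28 and -4.07 after 1000 ppm CO. With 3000 ppm CO it was -4.45, -4.44, -4.74 and -3.42, and with 5% O2 -3.80, -4.35 and -4.12. For both probes the 3 highest arrays were 6 h after 1000 ppm CO, 12 h after 3000 ppm CO and 0 h after 5% O2. The differences from air on these arrays were 0.83, 0.59 and 0.73 by probe 1 and 1.19, 1.04 and 0.67 by probe 2. Only the dimmer probe 2, at 18.4 to 66.6 intensity units against 302 to 787 for probe 1, passed 2-fold. The probes had the same sign of difference from air on 7 of 11 arrays and differed by a median of 0.24.

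Asns encodes asparagine synthetase, a classic ATF4 target. Its level was 1.35 in air, and 1.40, 1.23, 1.84 and 1.34 after 1000 ppm CO. The rats given 3000 ppm CO had 1.28, 1.25, 1.08 and 1.87, and those given 5% O2 had 1.45, 0.97 and 1.13. The arrays of 3000 ppm CO at 12 h (0.52 above air) and 1000 ppm CO at 6 h (0.49) stood apart from the rest, which lay between 0.97 and 1.45. Asns and Trib3, both ATF4 targets, did not share an order: their correlation over the 12 arrays was 0.14, while that of Asns with Chac1 probe 1 was 0.82.

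Sesn2 encodes sestrin 2, a stress-inducible regulator of mTORC1 and redox balance. Its level was -3.22 in air, and -3.71, -3.62, -2.96 and -3.71 after 1000 ppm CO. With 3000 ppm CO it was -3.23, -2.07, -3.33 and -3.47, and with 5% O2 -3.07, -3.75 and -3.52. The probe was dim, at 37.6 to 152.5 intensity units. The rat sampled 2 h after 3000 ppm CO was 1.15 above air, or 2.22-fold, while the rats at 0 and 6 h on the same slide lay at -0.01 and -0.11 from air. The other 9 probes lay between -0.90 and 0.02 from air on that array. All 4 blood cell markers were above air there (median 1.94), and they fell into pairs. The neutrophil genes S100a8 and S100a9 were highest on the same 2 h array (3.36 and 3.02, against 1.47 and 1.48 at 6 h), whereas the red cell genes Hbb and Alas2 were highest at 6 h (5.30 and 3.60, against 0.86 and 0.53 at 2 h). These pairs were chosen after their values were seen, and the part of blood cells in the Sesn2 value was not tested. Its correlations with the other 9 probes lay between -0.16 and 0.28.

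Hspa5 encodes BiP, the main ATPase chaperone of the ER lumen and the usual marker of the unfolded protein response. Its level was 5.05 in air, and 4.40, 4.60, 4.59 and 4.27 after 1000 ppm CO. The rats given 3000 ppm CO had 4.55, 4.14, 4.04 and 4.33, and those given 5% O2 had 4.64, 4.64 and 4.40. Air was thus the highest array and did not overlap any exposed rat, a pattern that 7.5% of 27931 probes shared. The gap ran from -0.41 (5% O2 at 0 and 2 h) to -1.01 (3000 ppm CO at 6 h, a 2.01-fold lower level), with a median of -0.65. On slide 1, which also carried air, the gap was -0.50, -0.90 and -1.01 at 0, 2 and 6 h after 3000 ppm CO. Air is a single rat, so that rat and the lack of an exposure cannot be told apart. Choroid plexus and ependyma markers were also highest in air: every marker that could be compared (8 to 10 genes) was below air on all arrays but that of 5% O2 at 6 h, where 9 of 10 were, and their part in the Hspa5 values was not tested.

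Herpud1 encodes an ER membrane protein of the degradation machinery (ERAD). Probe 1 read 2.55 in air, and 1.91, 1.86, 2.63 and 2.49 after 1000 ppm CO. With 3000 ppm CO it was 2.43, 2.19, 1.95 and 2.69, and with 5% O2 2.58, 2.41 and 2.37. Probe 2 read 0.62 in air, and -0.08, -0.05, 0.78 and 0.55 after 1000 ppm CO. The rats given 3000 ppm CO had 0.40, 0.31, 0.09 and 0.63, and those given 5% O2 had 0.36, 0.23 and 0.21. Both probes were low at 0 and 2 h after 1000 ppm CO, between -0.63 and -0.70 from air, and back near air at 6 and 12 h. They had the same sign of difference from air on 10 of 11 arrays and a median gap of 0.08. Herpud1 did not follow Hspa5, the other ER gene: the correlations over the 12 arrays were 0.37 and 0.28.

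Time within an exposure could be compared on single slides. After 1000 ppm CO, all 10 probes were higher at 6 h than at 0 h, by a median of 0.70, where 43.6% of all probes were higher. The largest steps were 1.29 for Chac1 probe 2, 0.86 for Herpud1 probe 2 and 0.81 for Trib3, and the smallest was 0.19 for Hspa5. By 12 h all 10 were lower than at 6 h, with a median step of -0.51, where 45% of all probes were lower. The array at 6 h therefore differed from its neighbours for these genes: 9 of 10 probes were above air there, against 46.4% of all probes, while all 10 were below air at 2 h, against 47.8%. On the 6 h array septal and thalamic markers were also higher than at 2 and 12 h (medians 1.34, -3.04 and -0.20 from air) and medium spiny neuron markers lower (-0.86, 0.94 and 0.43), and their part in these steps was not tested.

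After 3000 ppm CO most probes were lower at 6 h than at 0 h, both on slide 1. At 6 h, 9 of 10 were lower than at 0 h (43.9% of all probes), with a median step of -0.30, and all 10 were below air (42.2% of all probes). The steps were -0.51 for Hspa5, -0.47 for Herpud1 probe 1, -0.43 for Ddit3 and -0.38 for Atf4, and Trib3 alone was higher (0.17). From air through 0, 2 and 6 h, 7 of 10 probes were lower at each step, as were 7.45% of all probes: Ddit3, Atf4, Asns, Chac1 probe 1, Hspa5 and both Herpud1 probes. The array at 12 h, on slide 3, was higher than that at 6 h for 9 of 10 probes (46.1% of all probes), with steps of 1.32 and 1.00 for Chac1, 0.79 for Asns and 0.73 and 0.54 for Herpud1. Time, slide and scan date cannot be told apart in this last step. Septal and thalamic markers went the same way over all 4 arrays, with medians of -0.06, -2.43, -2.70 and 1.10 from air at 0, 2, 6 and 12 h. Hypothalamic peptide markers had medians of 0.38, -2.63, -2.85 and -0.19, and the part of these markers in the steps was not tested.

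After 5% O2, all on slide 3, most probes were again lower at the later times than at 0 h. At 2 h, 9 of 10 probes were lower than at 0 h (49.6% of all probes), with a median of -0.58, and at 6 h all 10 were lower (55.2% of all probes), with a median of -0.39. The steps at 2 h were -1.15 for Trib3, -0.85 for Chac1 probe 1, -0.69 for Ddit3 and Sesn2 and -0.62 for Atf4, while Hspa5 stood still at 0.00. At 0 h, 8 of 10 probes were above air, against 50.3% of all probes. Over the same 3 arrays septal and thalamic markers had medians of 1.82, 0.00 and -0.52 from air and medium spiny neuron markers -3.23, 0.08 and 0.46, and their part in these steps was not tested.

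Set side by side at matched times, which always lay on different slides, the exposures changed places. At 0 h, 5% O2 was above 1000 ppm CO for all 10 probes (51.4% of all probes) and above 3000 ppm CO for 9 (49.6%). The gaps to 1000 ppm CO were 1.97 for Trib3, 1.01 for Atf4 and 0.84 for Ddit3. At 2 h the probes were divided. There 5% O2 was above 1000 ppm CO for 6 of 10 (47.9% of all probes). It was above 3000 ppm CO for 7 (45%), and 3000 ppm CO was above 1000 ppm CO for 6 (51.4%). The median differences at 2 h were 0.16, 0.14 and 0.11. At 6 h, 5% O2 was below 1000 ppm CO for all 10 (45.9%) but above 3000 ppm CO for 9 (41.9%), and 3000 ppm CO was below 1000 ppm CO for all 10 (43.4%), with differences from -1.46 for Chac1 probe 2 to -0.37 for Sesn2. At 12 h, 3000 ppm CO was above 1000 ppm CO for all 10 (49.4%), by 0.06 for Hspa5 up to 0.65 for Chac1 probe 2. These comparisons share arrays and are not independent of each other. Septal and thalamic markers had the same order at 0, 6 and 12 h. Their medians from air at 0 h were 1.82 in 5% O2, -0.06 in 3000 ppm CO and -2.64 in 1000 ppm CO. At 2 h, where the probes were divided, they were 0.00 in 5% O2, -2.43 in 3000 ppm CO and -3.04 in 1000 ppm CO. At 6 h they were 1.34 in 1000 ppm CO, -0.52 in 5% O2 and -2.70 in 3000 ppm CO, and at 12 h 1.10 in 3000 ppm CO and -0.20 in 1000 ppm CO. Their part in the differences between exposures was not tested.

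Across the whole set, 5 of 10 probes had 5% O2 at 0 h, the 6 h array of 1000 ppm CO and the 12 h array of 3000 ppm CO as their 3 highest arrays, compared with 6.77% of 27931 probes: Atf4, Asns, both Chac1 probes and Herpud1 probe 1. The array of 1000 ppm CO at 6 h was the highest for 3 probes (both Chac1 probes and Herpud1 probe 2; 11.5% of all probes) and that of 3000 ppm CO at 12 h for 2 (Asns and Herpud1 probe 1; 8% of all probes). The range over the 12 arrays was at least 2-fold for 6 of 10 probes, against 37.9% of all probes. The patterns of this paragraph and the steps above were chosen after the values were seen. The 3 arrays are those on which the septal and thalamic markers had medians over 1 above air, whatever the exposure and time. They were not alike in all markers. In 3000 ppm CO at 12 h, 4 of the 6 septal and thalamic markers were above air and 2 below. There 11 of 12 medium spiny neuron markers were above air (median 0.24), and hypothalamic peptide markers had a median of -0.19. In 5% O2 at 0 h and 1000 ppm CO at 6 h, all 12 medium spiny neuron markers were below air. The part of these markers in the pattern was not tested.

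**Figure D3:**
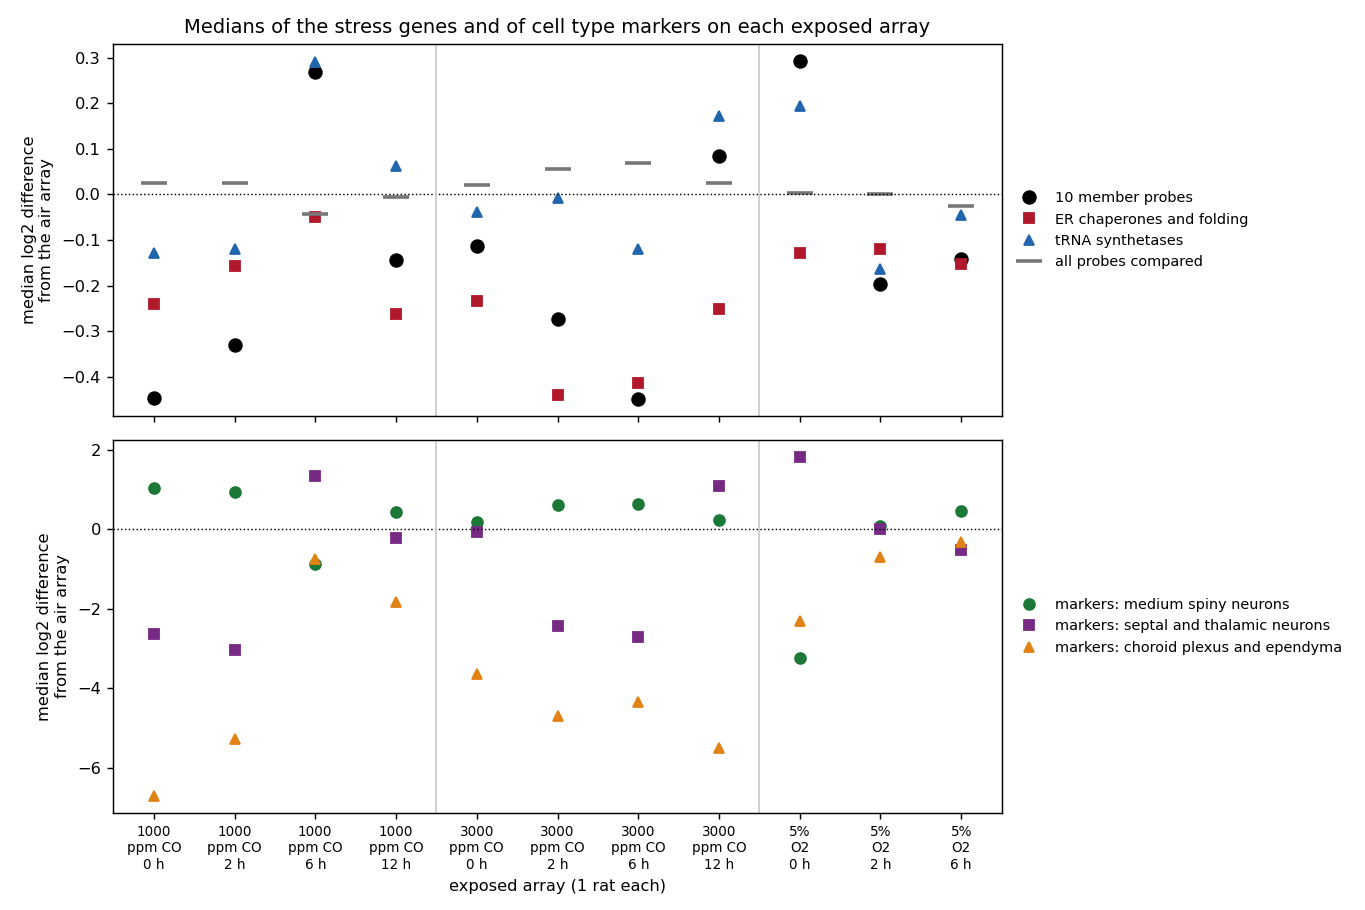
Median log2 difference from air on each exposed array, above for the 10 member probes, the ER chaperone and tRNA synthetase lists and all probes compared, and below for markers of 3 cell types; 1 rat per array. The member median is above 0 on 3 arrays (0.27, 0.08 and 0.29), and these are the arrays with septal and thalamic marker medians above 1. Medium spiny neuron markers are below air on the first and last of these but above air (median 0.24) in 3000 ppm CO at 12 h.

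The contrasts were tested in an additive model of exposure and time on all 12 arrays. Adjusted over the 32235 probes tested, 0 of the 10 probes passed an adjusted p of 0.05 in limma in any of the 9 contrasts, and the lowest adjusted p was 0.304. The shares of all probes called were 0.0155%, 0.0186% and 0.0124% for 2, 6 and 12 h against 0 h, 0.36% for 1000 ppm CO against 5% O2, 0% for 3000 ppm CO against 5% O2 and 4.43% for 3000 against 1000 ppm CO. Against air they were 0.109% for 1000 ppm CO, 0.0062% for 3000 ppm CO and 0% for 5% O2. At an unadjusted p under 0.05 in limma, 1 probe passed in each of 3 contrasts: Trib3 in 1000 ppm CO against 5% O2 (12.3% of all probes) and in 3000 ppm CO against 5% O2 (14.6%), and Hspa5 in 3000 ppm CO against air (4.38%). No member passed in the other 6, where 3.68%, 2.72% and 5.61% of all probes did for 2, 6 and 12 h, 19.1% for 3000 against 1000 ppm CO, 11.7% for 1000 ppm CO against air and 7.29% for 5% O2 against air.

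Trib3 was estimated at -0.90 ± 0.36 (SE) in 1000 ppm CO against 5% O2 and at -0.98 ± 0.36 in 3000 ppm CO against 5% O2, with limma adjusted p of 0.379 and 0.304. The 95% intervals ran from -1.74 to -0.06 and from -1.82 to -0.14. Both estimates depended on the array of 5% O2 at 0 h: without that array they were -0.40 and -0.48 (limma adjusted p 0.826 and 0.676). With slide as a random block they were -0.67 ± 1.24 and -0.66 ± 0.65 (unadjusted limma p 0.604 and 0.344), with slide as a fixed factor the second was -0.56 (p 0.497), and with normexp background correction the first was -0.17. The 2 doses of CO did not differ for Trib3 beyond the error, at -0.08 with an interval from -0.83 to 0.67.

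Hspa5 was -0.68 ± 0.25 (SE) in 3000 ppm CO against air, -0.48 ± 0.25 in 1000 ppm CO against air and -0.41 ± 0.25 in 5% O2 against air, with limma adjusted p of 0.979, 0.533 and 0.785. Leaving out each array in turn gave -0.58 to -0.86 for 3000 ppm CO. With slide as a fixed factor, which cannot estimate the contrasts of 1000 ppm CO, the value was -0.72, and with slide as a random block -0.71. Between the exposures, 3000 against 1000 ppm CO was at -0.19 with an interval from -0.53 to 0.15. Against 5% O2, 3000 ppm CO was at -0.27 (-0.65 to 0.11) and 1000 ppm CO at -0.07 (-0.45 to 0.31). These intervals span 0 but are wide, so the exposures were neither separated nor shown to be close.

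For Atf4 the estimate was -0.49 ± 0.25 in 1000 ppm CO against 5% O2 (limma adjusted p 0.470). Here a single array decided the call: without 1000 ppm CO at 6 h it was -0.80 ± 0.14 with a limma adjusted p of 0.0373, and Herpud1 probe 1 was -0.61 ± 0.12 with an adjusted p of 0.0428. These were the only calls of the 10 probes when single arrays were left out. In that fit 2076 of the 32235 probes tested were called, against 116 (0.36%) with all arrays. Without 5% O2 at 0 h as well, neither Atf4 nor Herpud1 probe 1 passed (limma adjusted p 0.135 and 0.151). For Chac1 probe 2 the estimate at 12 h against 0 h was 0.62 ± 0.45, with an interval from -0.43 to 1.67. It was 1.13 without the 12 h array of 1000 ppm CO, 0.10 without that of 3000 ppm CO, and 0.22 and 0.10 with slide as a random block and as a fixed factor. For Sesn2 the estimate of 3000 against 1000 ppm CO was 0.47 ± 0.34, from -0.32 to 1.27, and 0.09 without the 2 h array of 3000 ppm CO.

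**Figure D4:**
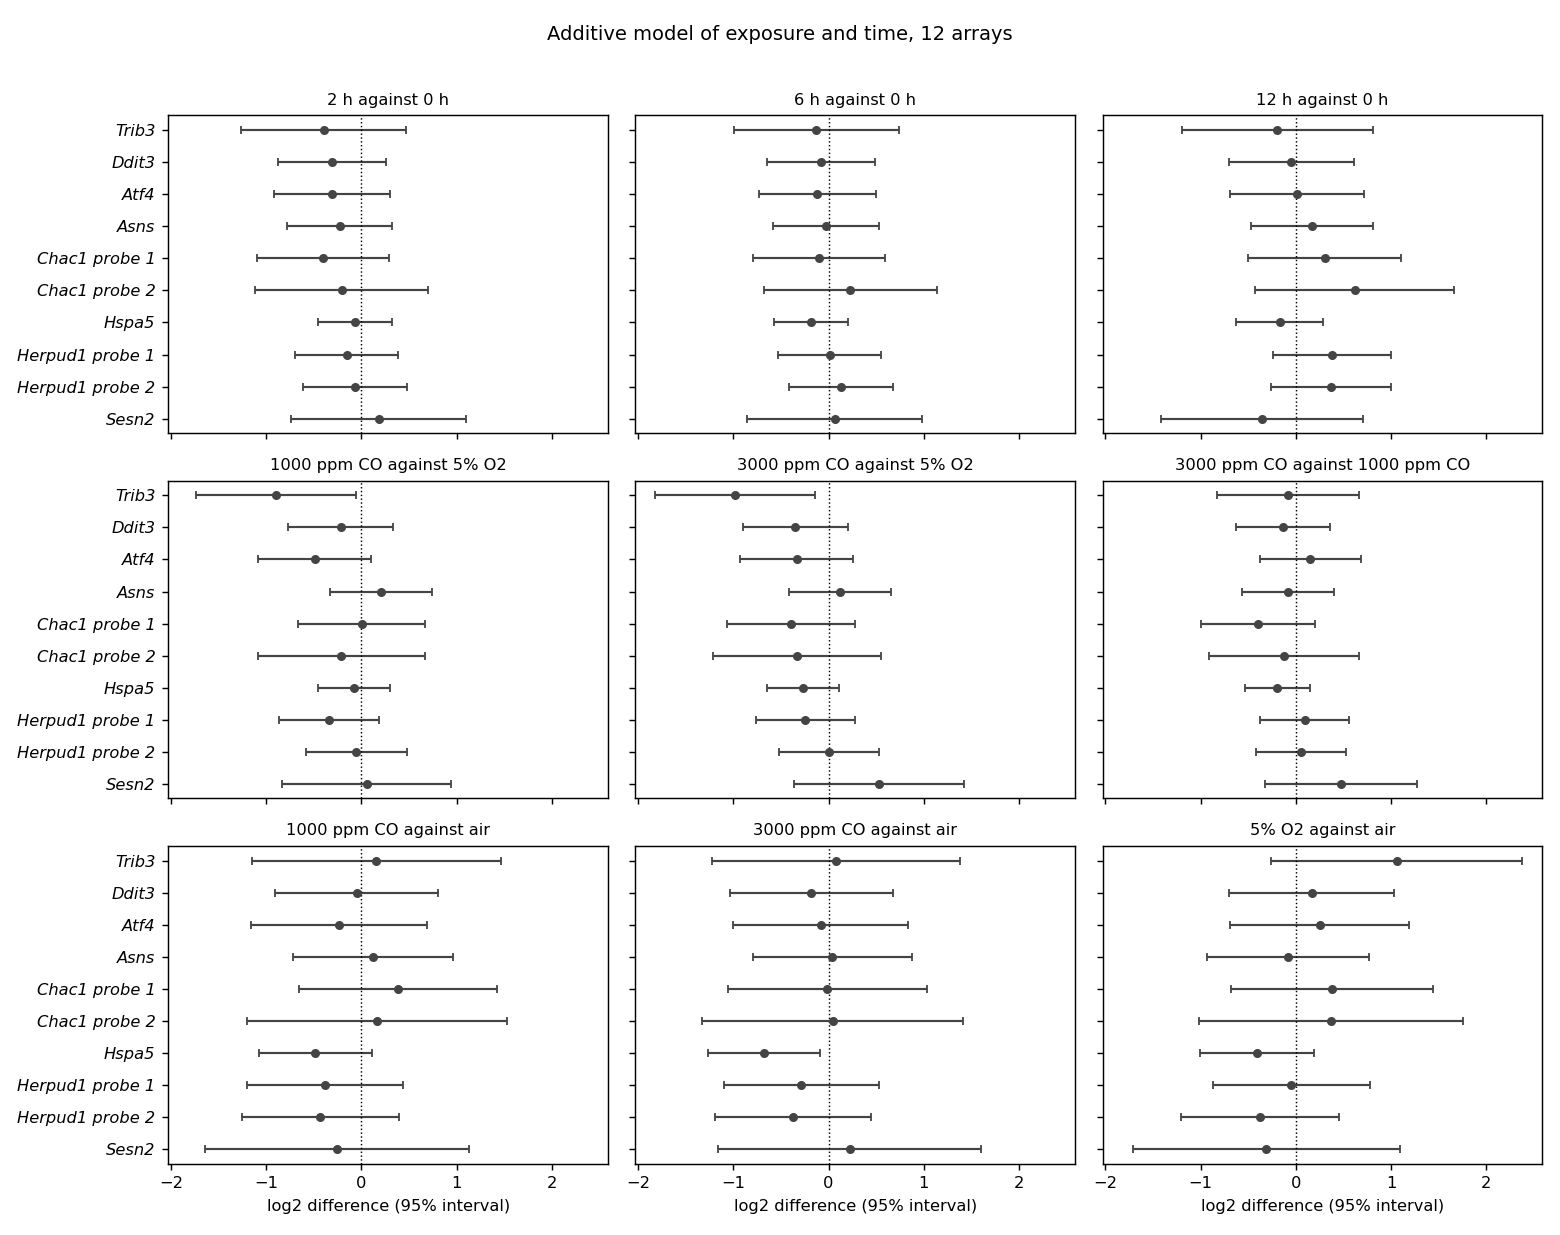
Estimates of the additive limma model (points) with 95% intervals (bars) for the 10 probes in 9 contrasts, as log2 differences from 12 arrays. Most intervals span 0; those of Trib3 in both contrasts of CO against 5% O2 and of Hspa5 in 3000 ppm CO against air do not, before adjustment over 32235 probes.

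The wider pathway was read from 7 lists of genes, using the brightest probe of each gene. Of their 126 tested entries, 1 gene passed in 1 contrast, that of 3000 against 1000 ppm CO, where 4.43% of all probes did. Creb3l1, an ER-anchored transcription factor related to ATF6, was higher in 3000 than in 1000 ppm CO by 0.90 ± 0.17 (SE, limma adjusted p 0.0299). From air it lay at -0.85, -0.65, -1.19 and -1.03 in the 4 rats of 1000 ppm CO and at 0.01, 0.20, 0.25 and -0.55 in those of 3000 ppm CO. The lower dose was also slide 2, and with slide as a random block 0 of all probes were called between the doses. The other 11 tested sensor and processing genes, and all genes of the other lists, gave no call.

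Among ER chaperones and folding factors, the pattern of Hspa5 was seen in part of the list. Of 21 genes, 11 were below air on all 11 exposed arrays and 0 above on all, compared with 7.5% of all probes below; the lists of ERAD and tRNA synthetase genes had 2 of 20 and 0 of 17. The list's median was below air on every array, from -0.05 (6 h after 1000 ppm CO) to -0.44 (2 h after 3000 ppm CO). All these differences share the single air rat. Choroid plexus and ependyma markers also had medians below that rat on all 11 exposed arrays (-0.32 to -6.70), and their part was not tested. Within slide 1, 19, 20 and 20 of 21 genes were below air at 0, 2 and 6 h after 3000 ppm CO, where 46.1%, 42.5% and 42.2% of all probes were. Dnajc3, the co-chaperone P58IPK that also restrains the eIF2 kinase PERK, lay between -0.49 and -1.31 from air, and Pdia6, a disulfide isomerase, between -0.19 and -0.76. Hyou1, an ER chaperone of the Hsp70 family, and Ppib, a prolyl isomerase, were above air on 8 of 11 arrays each (-0.33 to 0.30 and -0.29 to 0.26), and Fkbp2, of another prolyl isomerase family, on 6 (-0.08 to 0.16). In limma 0 of the 21 passed the adjusted threshold in any contrast, and at an unadjusted p under 0.05 at most 7 did, in 3000 against 1000 ppm CO, where 19.1% of all probes did and the lower dose was 1 slide.

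Among the partners and targets of ATF4 (22 genes tested), Atf3, an early-response factor, had the widest range. It stood at 4.15 above air in 5% O2 at 0 h, 3.92 straight after 3000 ppm CO and 2.16 straight after 1000 ppm CO, but between -1.93 and 0.18 on the other 8 arrays. Atf3 was thus high at 0 h after all 3 exposures, while Trib3 was high at 0 h after 5% O2 only and at -0.25 and -0.18 after CO. Gdf15, a stress-induced cytokine, was well above background on 8 of 12 arrays and below air on all 11, and on 3 arrays it was both well above background and at least 2-fold lower. It was nearest to air 2 and 6 h after 5% O2 (-0.27 and -0.25), where choroid plexus markers were nearest to air too (medians -0.68 and -0.32), and their part in it was not tested. The list's median lay between -0.20 and 0.13 across arrays.

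Of 18 genes of amino acid synthesis and transport, 1 was above air on all 11 arrays and 3 were below on all. These differences all share the single air rat. The gene above was Slc7a5, the large neutral amino acid transporter. The values separated by slide and scan date: 0.16, 0.36 and 0.24 on slide 1, which held air, and 0.97 to 1.85 on slides 2 and 3. The part of slide and scan date was not tested. Its partner Slc3a2 lay between -0.05 and 0.41. Slc7a3, a cationic amino acid transporter, had 0.93 at 6 h of 1000 ppm CO and 0.88 straight after 5% O2, and -1.17 to -1.42 on 4 other arrays. Phgdh, the entry enzyme of serine synthesis, was below air throughout (-0.05 to -1.03), as were 7.5% of 27931 probes. The tRNA synthetases, many of them ATF4 targets, had small differences. On the 6 h array of 1000 ppm CO all 17 exceeded air (median 0.29), where 46.4% of all probes did. On the 12 h array of 3000 ppm CO, 13 did (52.3% of all probes). On each of the other 9 arrays 4 to 10 did, where 47% to 57.8% of all probes did. Septal and thalamic markers had medians of 1.34 and 1.10 above air on the named 6 h and 12 h arrays. In 5% O2 at 0 h their median was 1.82, and 10 of the 17 synthetases exceeded air. The part of these markers was not tested.

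The genes whose levels ran most like each member over the 12 arrays were taken from 12087 genes with a symbol, by the Pearson correlation with the member's brightest probe. For Hspa5 they were Pdia6 (0.86), Creld2 (0.86) and Ppm1f (0.84), and the first pair is in the ER chaperone list. For Trib3 they were C8h15orf39 (0.91), Ssh3 and Card9, for Atf4 they included Ddx25 (0.97) and Gabarapl2, and for Ddit3 they were Prss35 (0.96), Ptger2 and Gdpd2. For Asns they were Mapk8ip2 (0.97), Klhdc8a and B3galt2, for Chac1 Rell2 (0.98), Map6 and Lynx1, for Herpud1 Ntng1 (0.96), Ptpn3 and Lmod2, and for Sesn2 Alg6 (0.88), Septin6 and Med10. No gene of the 7 lists or other member was among the 3 most alike for Trib3, Ddit3, Atf4, Asns, Chac1, Herpud1 or Sesn2.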

How the data were processed

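Single-colour Agilent arrays of 12 rat striata were scored with Feature Extraction 10.7.3.1, per the submitters' processing notes. Per the file headers, the processed signal is a background-subtracted intensity with no scaling between arrays, and mean signals and local backgrounds are raw intensities. The deposited series table holds log2 values that followed the log2 processed signal of each array (r of at least 0.9999, slope near 1) with column medians of 0. Here log2 processed signal minus each array's 75th percentile was used, outlying spots were left out and repeated spots averaged; 14 of 41012 probes were dropped. The number of arrays limits the precision. A limma 3.58.1 model (R 4.3.3) with additive exposure and time was fitted to 32235 probes well above background on at least 3 arrays (residual df 5, two-sided, Benjamini-Hochberg 0.05). The error term takes in any time course that differs between exposures. For contrasts with air, the lone array is assumed to vary like the others. With 200 of 32235 simulated probes changed by log2 3 at 2 h against 0 h, 178 were recovered with 7 false calls. The member estimates at 2 h against 0 h were far smaller, from -0.40 for Chac1 probe 1 to 0.18 for Sesn2. This simulation therefore cannot show how often changes as small as those of the members would be called. Members and lists were chosen with earlier results of these data known; list genes are named if called, at least 2-fold from air on 3 arrays, or among the 4 with the highest median level, and genes most alike a member by correlation. Probe names were updated through a RefSeq table (GRCr8). Alternatives covered background correction, normalization, filters, slide, probe choice, fold, reference and each array left out. Python 3.11.15, numpy 2.4.6, pandas 2.3.3 and matplotlib 3.10.9 were used.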

Additional observations from a re-analysis of the deposited data

Results flagged for a closer look

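Among the 4 arrays of 1000 ppm CO, the 6 h array stood apart from the other 3 for Trib3 (-2.75 against -3.48 to -3.56), with a gap of 0.902 of the whole range. The same array stood apart for Sesn2 (-2.96 against -3.62 to -3.71), with a gap of 0.884 of the range. Both gaps passed Dixon's 95% critical value for 4 samples. In all, 20 such tests were made, and chance passes about 1 in 20. The 4 arrays are at different times, so time and a stray array cannot be told apart.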

How the results depend on the processing

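No paired analysis was possible because each group had 1 rat and the labels give no replicate numbers. The count of member probes called stayed at 0 in all 9 contrasts under normexp, quantile normalization, the deposited series values, both other filters, the brightest probe of each gene and slide as a block where estimable. With each array left out it ranged from 0 to 2 in 1000 ppm CO against 5% O2 and was 0 in the other 8; contrasts with air cannot be estimated without the air array. Over all probes, calls between the CO doses went from 1428 to 18 with normexp and 0 with slide as a random block, and from 151 to 2595 with each array left out; in 1000 ppm CO against 5% O2 they went from 116 to 0 with normexp or the random block, 26 with quantile normalization or no filter and 42 with the series values. The 5 pairs at least 2-fold from air became 3 (2 higher) with the brightest probe only, 20 (8 higher, 12 lower) at 1.5-fold, 1 (1 higher, 0 lower) at 3-fold and 3 (0 lower) against the median of the 12 arrays. Without the arrays of 5% O2 at 0 h and 1000 ppm CO at 6 h, an alternative chosen after seeing the data, 3 pairs (2 higher) were left. Normexp moved the median of all probes against air by up to 0.40 and the series values by up to 0.15. Under normexp Trib3 in 5% O2 at 0 h was 1.30 above air and in 1000 against 5% O2 -0.17, Chac1 probe 2 in 1000 ppm CO at 6 h was 1.89, and Chac1 probe 2 in 3000 ppm CO at 12 h was 0.68. Against the median array, Hspa5 in 3000 ppm CO at 6 h was -0.43. The cause of these shifts was not tested. The dim probes among these values are Trib3 and Chac1 probe 2, with lowest signals of 41.4 and 18.4 intensity units. Sesn2 was dim too, with a lowest signal of 37.6.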
